A study of Rattus norvegicus and Sus scrofa and Bos taurus with 188 samples.

Results

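Actin, myosin and thymosin genes and their close partners were described in pig PG morulae. Other samples with PG in their title are labelled as parthenogenetic, meaning that the egg was activated without a sperm, and the morula labels give only the stage. The members were chosen by gene name alone, and 87 of the 15877 gene names of the table fit. They cover the actins, the alpha-actinins, the actin-related proteins with the Arp2/3 complex, the beta-thymosins, the profilins, cofilins and tropomyosins, the capping proteins, the formins of the DIAPH and FMN groups, the filamins and villin, the proteins ezrin, radixin and moesin, and the myosin heavy chains, light chains and unconventional myosins. The study compared epigenetic marks and RNA of eggs and early embryos between mammals, and the labels of 188 samples in 90 groups were given. Values were analysed here for 1 group, the RNA of the PG morula, whose 4 Smart-seq2 libraries the authors merged into 1 column. The labels give neither the breed nor the number of embryos in a library. A Smart-seq2 library copies polyadenylated RNA of very few cells into full-length cDNA.

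Actin is a globular protein that assembles into filaments. Profilin feeds actin monomers to growing ends, thymosin holds monomers back, the Arp2/3 complex starts branches, formins start and extend unbranched filaments, capping protein stops growth, and cofilin severs. Myosins pull on filaments or walk along them with cargo, and type II myosin of nonmuscle cells, built from heavy chains and light chains, gives a cell cortex its tension. In the mouse embryo, cortical actin and myosin are known to drive compaction of the morula, and ezrin marks the apical surface of its outer cells.

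Levels are given in FPKM, fragments scaled to the length of a transcript and to the fragments mapped in the library. The table has a row for each Ensembl transcript, and the value of a gene is its highest transcript. Genes at 1 FPKM or above were called expressed. With 1 merged column there is no spread between libraries, so no error, replicate number or test accompanies any value, and the depth behind the values is unknown. A difference between genes is therefore a description of this column, in which fewer cells of a type and less RNA per cell cannot be told apart.

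Markers were read beside the embryo label. Their lists were chosen with earlier results of these data known, so they are no independent check of the label. All 10 measured markers of the preimplantation embryo and egg were expressed, between 1.44 FPKM for ZP3 and 194 FPKM for TFAP2C. As this list mixes genes of embryo and egg, it cannot tell a morula from an egg. None of 9 markers of cumulus and granulosa cells, the cells that surround the egg, reached 1 FPKM. Their highest value was 0.835 FPKM for CYP19A1, their summed level was 1.19 FPKM, and FSHR, TNFAIP6 and FOXL2 were listed at 0. Of 6 fibroblast markers and 6 testis and sperm markers none reached 1 FPKM. Of 4 blood cell markers CD68, at 1.32 FPKM, and SPI1, at 1.21 FPKM, did. Of 23 muscle markers that are no members, 3 reached 1 FPKM and 7 were listed at 0.

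Of the 87 members 46 (52.9%) were expressed, against 48.8% of all genes of the table. The median member stood at 1.22 FPKM and the median of all genes at 0.916 FPKM. At 10 FPKM or more there were 28 members (32.2%), against 20.2% of all genes, and at 100 FPKM or more 7 members (8.05%), against 3.14%. Listed at 0 were 11 members (12.6%), against 17.3% of all genes. Near the threshold lay 6 members between 1 and 2 FPKM and 3 between 0.5 and 1 FPKM, so few calls turn on its exact place.

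With all their transcripts added, the members took 2.72% of the FPKM of the table. TMSB10 alone held 44.9% of that sum, and TMSB10, MYO5A and TMSB4X together held 76.4%. The other 84 members took 0.641% of the table. In 9 of the 15 families, expressed members outnumbered the others. Every measured member was expressed in the Arp2/3 complex, thymosin, DIAPH and FMN formin, and ezrin, radixin and moesin families, and none among the smooth and sarcomeric myosin heavy chains.

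**Figure D1:**
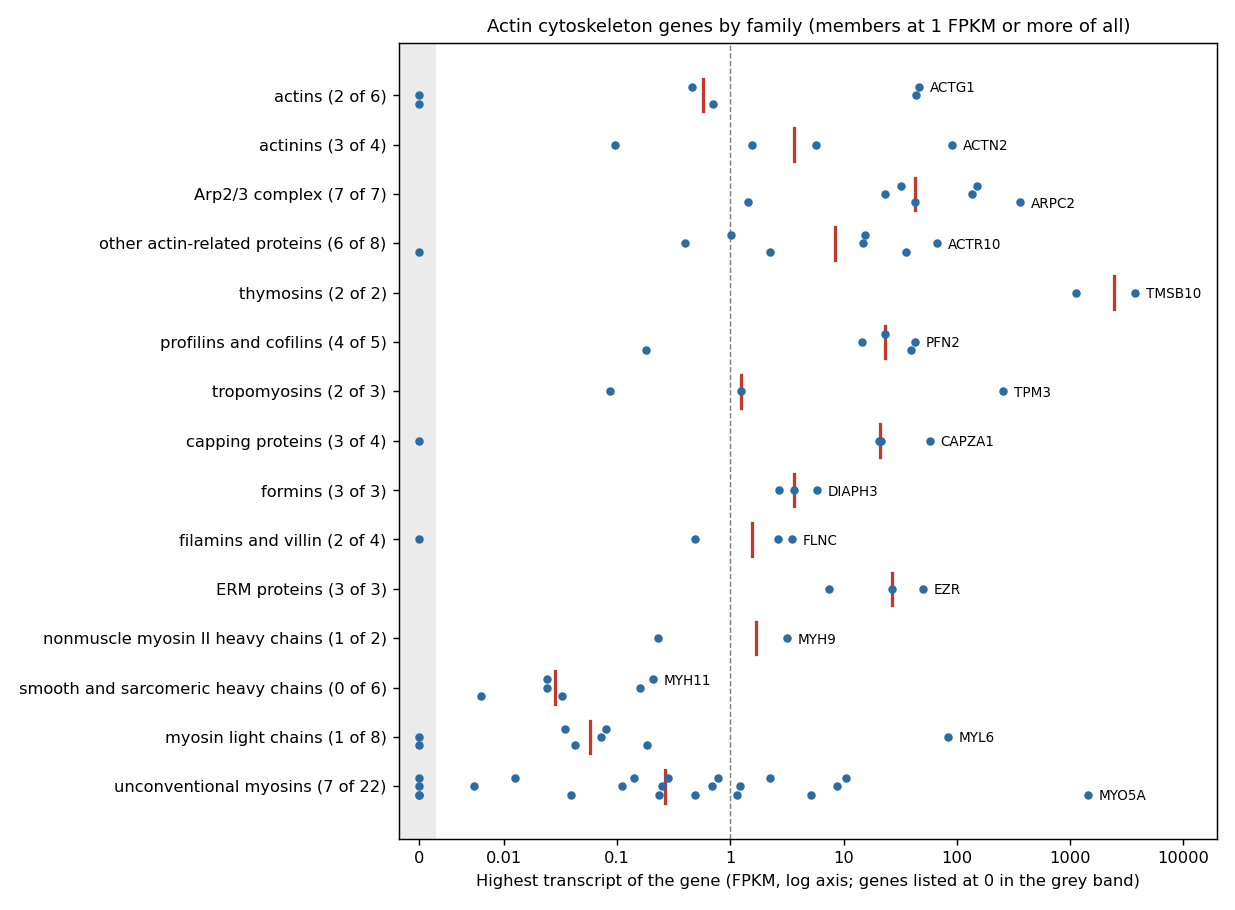
Level of each of the 87 members by family, as the FPKM of the highest transcript on a log axis, with genes listed at 0 in the grey band. Each point is a gene, the red bar is the family median, the dashed line marks 1 FPKM, and the counts give members at 1 FPKM or more of all. TMSB10, MYO5A and TMSB4X lie above 1000 FPKM, while no smooth or sarcomeric heavy chain reaches 1 FPKM.

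Thymosins led the members. TMSB10, which binds actin monomers and keeps them from assembling, stood at 3719 FPKM in its only transcript of the table (ENSSSCT00000009030.3) and was the highest gene of the table. TMSB4X, which encodes the related thymosin beta 4, stood at 1117 FPKM with a further transcript at 31.2 FPKM, and ranked 33rd. The level of TMSB10 was 3.33 times that of TMSB4X. Both together came to 4868 FPKM, 1.60% of the table.

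Among the actins, the cytoplasmic forms were high and the muscle forms low. ACTG1, the gene of cytoplasmic gamma-actin, stood at 46.7 FPKM and ACTB, that of cytoplasmic beta-actin, at 43.3 FPKM. The order of this pair turned with the way transcripts were combined. ACTB had further transcripts at 23.9 and 2.86 FPKM and summed to 70.3 FPKM, against 47.1 FPKM for ACTG1. The skeletal muscle actin ACTA1 stood at 0.700 FPKM, the vascular smooth muscle actin ACTA2 at 0.458 FPKM, and the enteric smooth muscle actin ACTG2 and the actin-like gene ACTBL2 were listed at 0. The cardiac actin ACTC1, which lies outside the rule on names, stood at 0.677 FPKM. On the log2(FPKM + 1) scale the median of ACTB and ACTG1 lay 4.88 above that of the 4 muscle actins. Actin genes are near-identical in their coding sequence, so the split of reads between them is uncertain.

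Messages of monomer-binding proteins were set against those of the cytoplasmic actins with all transcripts added. TMSB10 and TMSB4X came to 41.5 times the sum of ACTB and ACTG1, which was 117 FPKM. The profilins PFN1 and PFN2 came to 81.8 FPKM, or 0.697 times that sum, and the cofilins CFL1 and CFL2 to 64.7 FPKM, or 0.551 times. These are ratios of message levels already scaled to transcript length, and they say nothing of protein.

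Profilins and cofilins were expressed in 4 of 5 cases (80%), against 48.8% of all genes. PFN2 stood at 42.7 FPKM and PFN1 at 39.2 FPKM, each in 1 transcript and close to ACTB and ACTG1. PFN4, known from testis, stood at 0.179 FPKM. CFL1, the widely expressed cofilin, had a pair of near-equal transcripts at 23.3 and 23.0 FPKM and summed to 47.0 FPKM. CFL2, the cofilin known for muscle, stood at 14.7 FPKM and summed to 17.7 FPKM. The level of CFL1 was 1.59 times that of CFL2 by the highest transcript and 2.65 times by the sum. With the mean of transcripts the order turned, and CFL1 minus CFL2 was -0.16 on the log2(FPKM + 1) scale.

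All 7 measured members of the Arp2/3 complex were expressed, with a median of 43.0 FPKM. Its scaffold subunit gene ARPC2 stood highest at 358 FPKM, followed by ARPC3 at 151 FPKM and ARPC5L at 135 FPKM. ARPC5, the paralogue of ARPC5L for the same place in the complex, stood at 43.0 FPKM, or 0.319 times ARPC5L. ACTR2, which encodes the actin-related subunit Arp2, stood at 32.5 FPKM, and ARPC4, the partner of ARPC2 in the core, at 23.3 FPKM. ARPC1B, a form of the subunit that contacts nucleation promoters, was far below the others at 1.44 FPKM. Subunit messages of this complex thus spanned 248-fold, or 15.4-fold without ARPC1B. In the ring of the chaperonin CCT, which folds actin and likewise has fixed subunit numbers, 7 measured genes spanned 6.22-fold, between 37.5 FPKM for CCT7 and 233 FPKM for TCP1. The genes ARPC1A, ACTR3 and ACTR3B were not analysed here. The span of the Arp2/3 complex is therefore no like measure to that of the ring. It counts ARPC5 and ARPC5L apart although they fill the same place, and it lacks ARPC1A, the paralogue of ARPC1B.

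Other actin-related proteins were lower than the Arp2/3 complex, at a median of 8.48 FPKM. Of these, 6 of 8 (75%) were expressed, against 48.8% of all genes. On the log2(FPKM + 1) scale the medians differed by 2.63. ACTR10 and ACTR1A, both of dynactin, the partner of the microtubule motor dynein, stood at 67.4 and 35.3 FPKM. Their relative ACTR1B stood at 1.01 FPKM. ACTR6, ACTR8 and ACTR5, which belong to chromatin remodelling complexes in the nucleus, stood at 15.6, 14.7 and 2.22 FPKM. ACTRT3, known from the sperm head, stood at 0.402 FPKM, and ACTRT2, known from testis, was listed at 0.

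Capping protein is a dimer of an alpha and a beta chain. CAPZA1 stood at 57.6 FPKM, CAPZA2 at 20.7 FPKM and the beta chain gene CAPZB at 21.2 FPKM, while the testis form CAPZA3 was listed at 0. CAPZB had a second transcript at 7.03 FPKM and another at 1.29 FPKM. With transcripts added the alpha chains came to 78.2 FPKM and the beta chain to 30.3 FPKM, a ratio of 2.59. The level of CAPZA1 was 2.78 times that of CAPZA2.

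The 3 measured formins of the DIAPH and FMN groups were expressed, none above 5.80 FPKM. DIAPH3 stood at 5.80 FPKM with a second transcript at 5.48 FPKM, FMN1 at 3.63 FPKM with a second at 2.56 FPKM, and DIAPH2 at 2.67 FPKM. Their median, 3.63 FPKM, lay 3.25 below that of the Arp2/3 complex on the log2(FPKM + 1) scale. DIAPH1 and FMN2 were not analysed here, and formins of other groups are given among the regulators.

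Ezrin, radixin and moesin, which link the membrane to cortical actin, were all expressed and were led by ezrin. EZR stood at 50.2 FPKM, RDX at 26.9 FPKM and MSN at 7.42 FPKM. RDX had further transcripts at 9.07, 2.74 and 1.00 FPKM, and its sum of 39.8 FPKM came nearer to EZR. The level of EZR was 6.77 times that of MSN by the highest transcript and 5.69 times by the sum.

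Tropomyosins, which lie along the filament and set which proteins can bind it, were dominated by 1 gene. TPM3 stood at 255 FPKM, with a second transcript at 64.9 FPKM and another at 1.47 FPKM. TPM1 stood at 1.25 FPKM and TPM2, a muscle form, at 0.0875 FPKM. TPM4 was not analysed here. Of the filamins, which crosslink filaments into gels, FLNC stood at 3.52 FPKM and FLNA at 2.64 FPKM. Villin, VIL1, a bundler of microvilli in gut epithelium, was listed at 0.

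**Figure D2:**
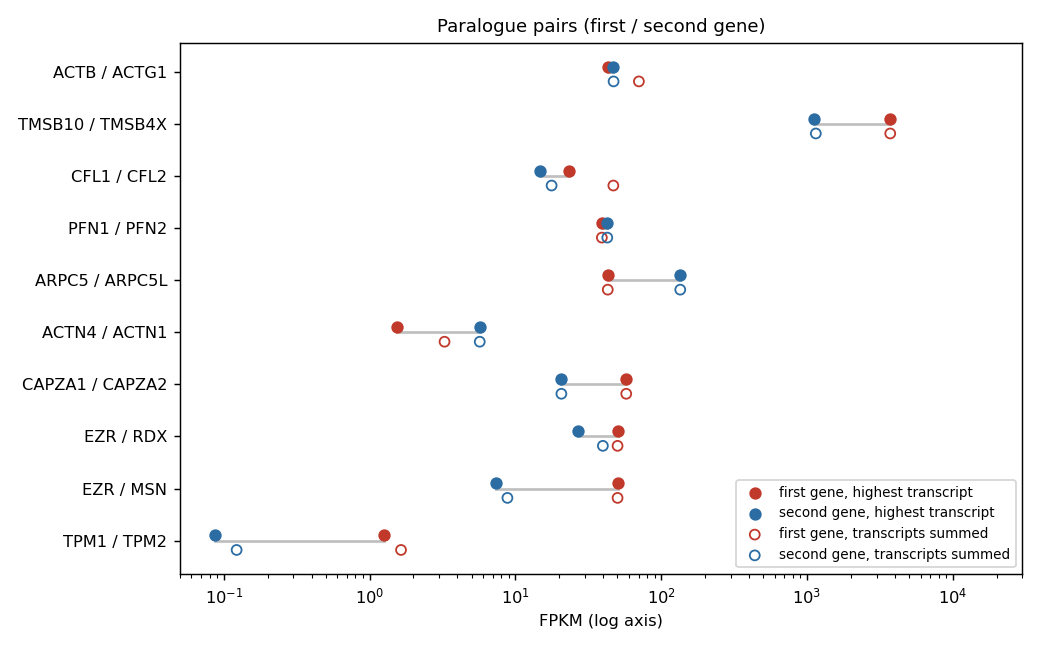
Level of both genes in each of 10 paralogue pairs, in FPKM on a log axis. Filled points are highest transcripts and open points sums of transcripts, with the first gene of the pair in red and the second in blue; ACTB and ACTG1 change order between the measures, while TMSB10 stays above TMSB4X and EZR above MSN in both.

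Alpha-actinins crosslink filaments, and the muscle form ACTN2 stood highest. ACTN2, known as a protein of the muscle Z-disc, stood at 90.6 FPKM, above the nonmuscle forms ACTN1 at 5.70 FPKM and ACTN4 at 1.54 FPKM. The fast muscle form ACTN3 stood at 0.0956 FPKM. The value of ACTN2 came from 1 of its 4 transcripts, ENSSSCT00000061348.1. The others stood at 0.117 FPKM or less, so that 99.8% of the gene's sum lay in 1 transcript. With that transcript left out, ACTN2 lay 1.19 below ACTN4 on the log2(FPKM + 1) scale, against 5.17 above it with the transcript included. The comparison of ACTN2 with ACTN4 was added after the values were seen.

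Muscle markers were read beside ACTN2. Of 11 other measured markers of skeletal muscle 1 was expressed, the fast troponin C gene TNNC2 at 21.1 FPKM, and their summed level was 22.4 FPKM. MYOG and MYF5 were listed at 0, and MYOD1 stood at 0.0602 FPKM, CKM at 0.374 FPKM and DES at 0.0527 FPKM. Of the heart markers TNNI3 stood at 8.05 FPKM and NPPA, NPPB and NKX2-5 were listed at 0. Of the smooth muscle markers SMTN stood at 1.06 FPKM and CNN1 and LMOD1 were listed at 0.

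In type II myosin of nonmuscle cells, a light chain stood far above the measured heavy chains. MYH9, the heavy chain of nonmuscle myosin IIA, stood at 3.14 FPKM and MYH14, that of nonmuscle myosin IIC, at 0.232 FPKM, and MYH10 was not analysed here. MYL6, the essential light chain of nonmuscle and smooth muscle cells, stood at 83.9 FPKM. The level of MYL6 was 26.7 times that of MYH9 by the highest transcript and 21.3 times by the sum. MYL9, a regulatory light chain known for smooth muscle, stood at 0.0350 FPKM, and the regulatory light chains MYL12A and MYL12B were not analysed here.

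No smooth or sarcomeric myosin heavy chain reached 1 FPKM. The 6 heavy chain genes stood at 0.206 FPKM for MYH11, 0.160 FPKM for MYH3, 0.0330 FPKM for MYH7, and between 0.00625 and 0.0243 FPKM for MYH4, MYH13 and MYH8. On the log2(FPKM + 1) scale the median of MYH9 and MYH14 exceeded theirs by 1.14. Apart from MYL6, none of the 8 light chain genes passed 0.183 FPKM, the level of MYL1. MYL2, MYL10 and MYL4 stood between 0.0428 and 0.0799 FPKM, and MYL3 and MYL5 were listed at 0.

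Unconventional myosins, the motors that carry cargo or hold membranes to actin, included 7 expressed genes among 22 (31.8%), against 48.8% of all genes. Their median was 0.268 FPKM, against 0.916 FPKM for all genes. MYO5A, a carrier of vesicles, stood at 1444 FPKM and ranked 23rd among all genes. MYO19, which is bound to mitochondria, stood at 10.6 FPKM, and MYO6, which walks towards the pointed end of the filament, at 5.15 FPKM. MYO1E, MYO9A and MYO1C followed at 2.26, 1.22 and 1.14 FPKM. MYO10, the motor of filopodia, was the nearest below the threshold at 0.787 FPKM, before MYO1F at 0.692 FPKM. Further members above 0 were MYO3B at 0.492 FPKM, MYO5C at 0.284 FPKM, MYO9B at 0.251 FPKM, MYO1D at 0.235 FPKM, and MYO3A, MYO1A, MYO18B, MYO1G and MYO7A between 0.00549 and 0.142 FPKM. MYO15A, MYO16, MYO1H and MYO7B were listed at 0.

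The level of MYO5A rested on 1 transcript. The transcript ENSSSCT00000005100.2 stood at 1444 FPKM, and the other 6 transcripts of the gene stood at 6.01, 4.56, 4.24, 0.886, 0.859 and 0.0852 FPKM. The highest was 240 times the second. The other 6 added up to 16.6 FPKM, so the gene would still be expressed without the highest transcript, but at its second transcript it would rank 4158th among all genes, below MYO19. FAM214A, MYO5C and GNB5 each have a transcript numbered near the highest of MYO5A, and these stood at 1.32, 0.132 and 5.18 FPKM. Over all their transcripts the genes stood at most at 3.74, 0.284 and 5.18 FPKM. Positions in the genome were not used. What sets the high level of the highest MYO5A transcript was not tested. MYO5A held 97.5% of the summed level of the unconventional myosins, and the other 21 came to 37.0 FPKM in all.

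Levels that rest on 1 transcript were counted to place MYO5A and ACTN2. Of the 19 members with more than 1 transcript and a highest level of 10 FPKM or more, 8 (42.1%) had a highest transcript at least 100 times the second, against 19.1% of the 1903 such genes of the table. The members were MYL6, ACTR1A, ACTN2, ARPC5L, MYO5A, MYO19, ACTG1 and ACTR2. The median ratio was 35.8 in the members and 7.88 in all such genes, with a second transcript below 0.001 FPKM set to that value. Of the 22 genes of the table with more than 1 transcript and a highest level of 1000 FPKM or more, 8 had such a ratio, MYO5A among them. Of the 51 members with more than 1 transcript, 17 had more than 1 at 1 FPKM or more. By transcripts, 72 of the 235 of the members (30.6%) reached 1 FPKM, against 30.3% of all.

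**Figure D3:**
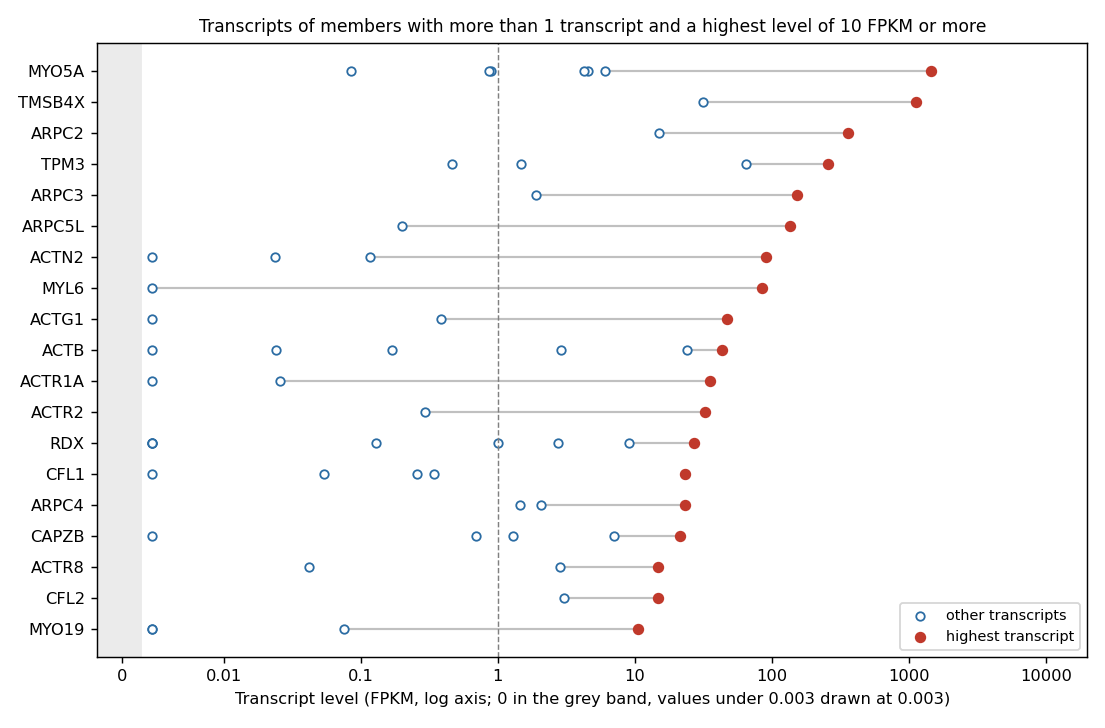
Level of every transcript of the 19 members with more than 1 transcript and a highest level of 10 FPKM or more, in FPKM on a log axis. The red point is the highest transcript, the open points are the others, the grey line spans the highest and the second, and values under 0.003 FPKM are drawn at 0.003; MYO5A and ACTN2 stand far above their other transcripts, while CFL1 has a second transcript at nearly the same level.

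Regulators of actin outside the rule on names were expressed in 72 of 111 measured cases (64.9%), against 48.8% of all genes, with a median of 2.1 FPKM. Of 5 listed GTPases that switch contractility and branching, 2 were measured, RHOA at 175 FPKM and RAC1 at 116 FPKM. RHOB, RHOC and CDC42 were not analysed here. Of 18 kinases and phosphatases 12 (66.7%) were expressed. PPP1CB, the catalytic subunit of myosin phosphatase, stood at 51.5 FPKM, PAK2 at 10.0 FPKM and the targeting subunit of myosin phosphatase, PPP1R12A, at 7.87 FPKM. The myosin light chain kinase MYLK stood at 0.574 FPKM and LIMK1, an inhibitor of cofilin, at 0.703 FPKM. Its paralogue LIMK2 was expressed at 3.29 FPKM, and the kinases ROCK1 and ROCK2 at 6.44 and 3.45 FPKM. PPP1R12A, LIMK2, ROCK1, ROCK2 and ABI1 were named after their values were seen.

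Activators of the Arp2/3 complex were expressed in 14 of 18 cases (77.8%). BRK1 and ABI1, both of the WAVE complex, stood at 100.1 and 31.0 FPKM, and WASL, the N-WASP gene, at 31.8 FPKM. CYFIP2, at 0.671 FPKM, and WAS, the form of blood cells, at 0.543 FPKM, were the nearest below 1 FPKM. Nucleators and elongation factors apart from the Arp2/3 complex were expressed in 6 of 13 cases (46.2%), against 48.8% of all genes. They were led by SPIRE2, a nucleator that works with FMN2 in the mouse egg, at 23.7 FPKM and DAAM1 at 7.82 FPKM. FMNL3 and EVL stood nearest below, at 0.247 and 0.208 FPKM. Further formins below 1 FPKM were FHOD1 at 0.188 FPKM, DAAM2 at 0.107 FPKM and FHOD3 at 0.0971 FPKM, a choice made with their values known.

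Of 16 genes of monomer binding and severing 11 (68.8%) were expressed. CAP1, which recycles monomers, stood at 59.0 FPKM and TWF1, a monomer-binding twinfilin, at 40.1 FPKM. CAP2 and CORO2A lay below, at 0.970 and 0.526 FPKM. Tropomodulins cap the pointed end, and TMOD3 stood at 44.5 FPKM and TMOD1 at 9.80 FPKM, while TMOD2 was at 0.936 FPKM and TMOD4 at 0.280 FPKM. Crosslinkers and links to adhesions were expressed in 12 of 25 cases (48.0%), near the 48.8% of all genes. They were led by CNN2, a calponin, at 30.5 FPKM and PLS3, a plastin, at 11.7 FPKM. The spectrin SPTBN1 stood at 0.925 FPKM and CALD1 at 0.850 FPKM.

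SLC9A3R1, the scaffold that ezrin binds under the membrane, stood at 129 FPKM, and NF2, the merlin gene, at 4.08 FPKM. SRF, the transcription factor that drives many actin genes, was at 0.0964 FPKM, and its actin-sensing partners MRTFB and MRTFA stood at 1.02 and 0.946 FPKM. Genes of actin folding were expressed in all 10 measured cases, with TCP1 at 233 FPKM and CCT8 at 200 FPKM in the lead.

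**Figure D4:**
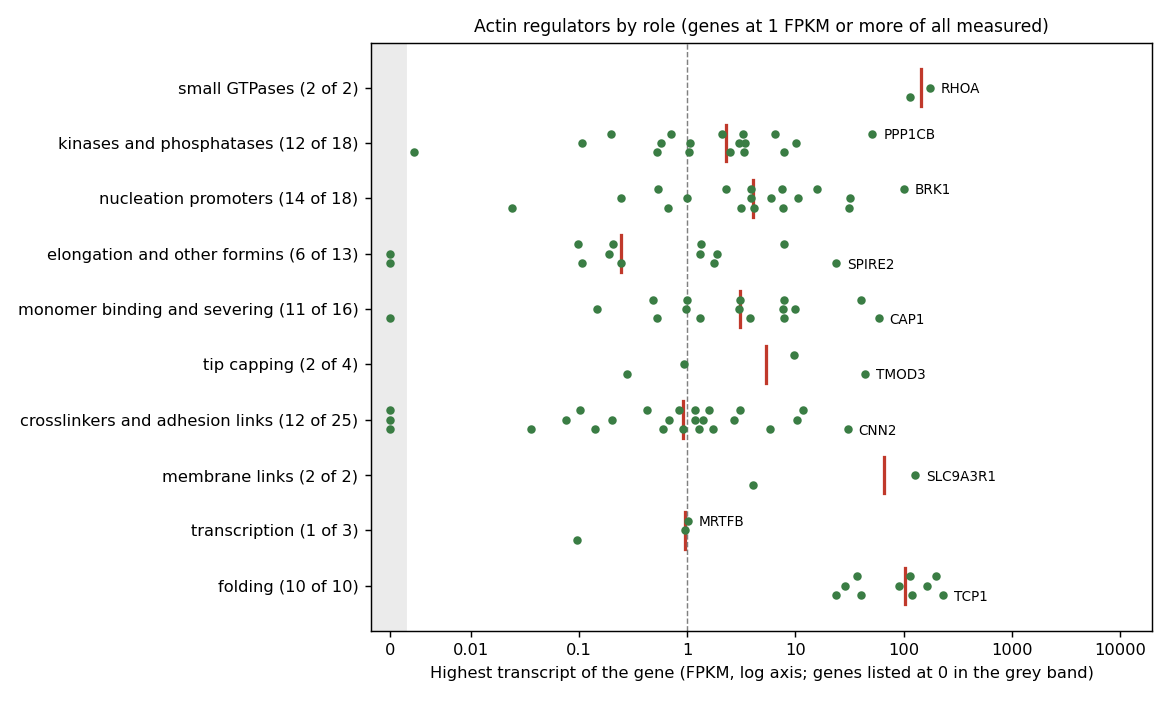
Level of 111 actin regulators by role, as the FPKM of the highest transcript on a log axis, with genes listed at 0 in the grey band and lower values than 0.003 FPKM drawn at 0.003. Each point is a gene, the red bar is the median of a role, the dashed line marks 1 FPKM, and the counts give genes at 1 FPKM or more of all measured; folding genes all lie above 20 FPKM, while SRF lies at 0.0964 FPKM.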

How the data were processed

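Polyadenylated RNA of pig PG morulae was measured in 4 Smart-seq2 libraries. The authors deposited 1 merged column of FPKM values, named so per the file headers, for 37571 transcripts. TopHat2 2.1.1 and Cufflinks 2.2.1 are among the tools in the submitters' processing notes. The way of merging and the build behind this table were not given in the sources used here. Of the transcripts, 4534 lay above 0 and under 1e-06 FPKM.

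Gene names were matched to the members' rule, and the value of a gene was its highest transcript. Differences used log2(FPKM + 1). Python 3.11.15, numpy 2.4.6, pandas 2.3.3 and matplotlib 3.10.9 were used. The highest transcript, the members' rule, the count at the threshold and the contrast of Arp2/3 complex and formins were tested on simulated data. The other steps were not. Libraries without values of their own allow no test. Members and lists were chosen with earlier results of these data known.

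Every member was named or counted. All were named in the actin, Arp2/3, thymosin, profilin and cofilin, capping, ezrin, nonmuscle myosin II and actinin families. Elsewhere the 4 highest and up to 4 against their family's majority were named, and 2 regulators of each role on either side of 1 FPKM; other genes were named after their values were seen. Alternatives changed the threshold, the value of a gene, the scale, the pseudocount and the filter. Sequences and transcript lengths were not used here, and a few members are counted but not reported by name.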

Additional observations from a re-analysis of the deposited data

How the results depend on the processing

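The count of expressed members, 46, ranged between 33 at a threshold of 5 FPKM and 53 on the TPM scale, and was 45 without the highest transcripts of MYO5A and ACTN2, an alternative chosen after seeing the data. Their share of the table was then 2.23%, and 1.5% without TMSB10, against 2.72%. The members' median of 1.22 FPKM became 0.572 with the mean of transcripts, 4.02 on the TPM scale, which raises every gene 3.28-fold, and 5.70 over genes at 0.1 FPKM or more. At 5 FPKM, expressed members outnumbered the others in 5 families in place of 9, and 39 regulators in place of 72 were expressed. With a pseudocount of 0.1, nonmuscle myosin II heavy chains exceeded smooth and sarcomeric ones by 3.01 and ACTB and ACTG1 the muscle actins by 6.10 on the log2 scale. With transcripts summed, the Arp2/3 complex exceeded the DIAPH and FMN formins by 2.57. Order turned in 3 cases: ACTB minus ACTG1 was 0.57 with transcripts summed, CFL1 minus CFL2 was -0.16 with the mean of transcripts, and ACTN2 minus ACTN4 was -1.19 without the highest transcript of ACTN2. In 39 other cases counts, medians and shares kept within 1.5 times their value, and log2 differences shifted by no more than a 1.5-fold change in level. Among them the median of the members minus that of all other genes, 0.22, was 0.38 with a pseudocount of 0.1 and 0.68 with means. Some of the 39 could not have moved. A setting left out 474 transcripts at the end of the table, all listed at 0 and none of a member. It could change only the comparison with all other genes. A filter at 0.1 FPKM cannot change a count at 1 FPKM. By the same 1.5-fold bounds 36 of 150 family values and 19 of 50 paralogue values moved without turning. On the TPM scale all 15 family medians had to move, because every gene rises 3.28-fold. Without the transcripts at the end of the table no family value could move. No paired analysis was possible because the 4 libraries share 1 column, and for the same reason no library could be left out. Protein length and promoter motifs were not analysed here. The depth is unknown.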
